A study of Bos taurus with 24 samples.

Results

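The cytosolic ribosomal protein genes of bovine granulosa cells were taken as all genes of the count table whose symbol has the form of a ribosomal protein of the large subunit (RPL), of the small subunit (RPS), of the stalk (RPLP) or is RPSA. Of 79 cow symbols of that form, 71 were matched to a gene of the table, out of 27607 genes in all. They comprised 37 proteins of the large subunit, 28 of the small subunit, 3 stalk proteins and 3 paralogs whose symbol ends in L (RPL3L, RPL10L and RPS27L). Of these, 70 passed the filter on low counts and were tested among 14298 genes. The exception was RPL10L, an intronless copy of RPL10, with 11 counts in 7 of 24 libraries.

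The libraries came from cow ovarian follicles at 3 stages: granulosa cells of secondary follicles (4 libraries), cumulus cells and mural granulosa cells of early antral follicles (5 libraries each), and the same pair of cell types of late antral follicles (5 libraries each). The oocyte is enclosed by the cumulus cells, while the wall of the follicle is lined by the mural cells. The study asked how the ability of granulosa cells to send projections through the zona pellucida to the oocyte changes as the follicle grows, and sequenced the cells of follicles of different size. The labels name no breed, age, animal, treatment or pooling for any group, so p-values measure only the spread between these libraries.

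A cytosolic ribosome joins a small subunit, which reads the messenger RNA, to a large subunit, which forms the peptide bond. Each subunit holds ribosomal RNA and one copy of most of its proteins, and the genes of these proteins are among the most strongly expressed of a growing cell. Their short messenger RNAs begin with a pyrimidine-rich tract through which the mTOR pathway controls their translation. In the ovary, granulosa cells multiply through the antral stages, and cumulus cells pass nutrients and RNA to the oocyte.

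Total counts ran from 8379801 to 31762400 per library. The 3 libraries that correlated least with their own group over all genes were late mural library 3 (mean r = 0.870), late cumulus library 3 (0.914) and early mural library 4 (0.920). Values without them are given with the results. Late mural library 3, numbered by column order, held 10.6 CPM of FSHR and 26.3 CPM of INHA, which mark granulosa cells. The group medians were 309.8 and 2223 CPM. That library also held 276 CPM of DCN, a stromal gene, against a median of 3.20 CPM. The 13 granulosa markers summed to 637 CPM in the lowest late mural library and to between 3033 and 34072 CPM in the libraries of the other 4 groups. Oocyte markers summed to at most 36.1 CPM in any library, with BMP15, FIGLA and KPNA7 at 0 in all groups. Summed blood markers had a median of 56.0 CPM in late cumulus libraries and at most 9.79 CPM in libraries of the other groups. Summed theca and stroma markers had a median of 613 CPM in late cumulus and 350.1 CPM in late mural libraries. The single markers did not move together. Of 5 blood markers tested, 1 was higher and 1 lower in late than in early cumulus cells (22.5% and 22.7% of all genes), and 1 higher and 0 lower against late mural cells. Of 9 theca and stroma markers, 3 were higher and 1 lower in late than in early cumulus cells. Against late mural cells 1 was higher and 3 lower (18.9% and 20.8% of all genes). Whether these markers reflect other cells, and the part of such cells in the results below, was not tested.

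The 71 genes took 11.7% ± 1.73 of the counts in secondary granulosa cells (SD, n = 4), 11.5% ± 1.35 in early cumulus cells, 11.6% ± 0.884 in early mural cells, 8.47% ± 2.55 in late cumulus cells and 11% ± 1.70 in late mural cells (SD, n = 5 each). The late cumulus libraries held 10.2%, 10%, 10%, 4.23% and 7.93%. Library 4 was thus far below the others, and the mean without it was 9.53%, below the group means of all other groups. The early cumulus libraries held 9.77% to 12.9%, so the ranges of the 2 groups overlapped. Large-subunit genes with the stalk took 4.27% ± 1.29 of late cumulus counts and small-subunit genes 4.18% ± 1.26, against 5.83% ± 0.661 and 5.58% ± 0.690 in early cumulus libraries (SD, n = 5 each), so the mean was lower in late cells for both subunits. Mitochondrial genes took 20.7% ± 9.58 of early mural and 6.21% ± 0.759 of early cumulus counts (SD, n = 5 each), and without mitochondrial counts the members' mean shares were 13.3%, 12.2%, 14.7%, 10.3% and 12.9% in the order of groups above. In bulk samples, fewer cells of a type and less RNA per cell cannot be told apart.

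**Figure D1:**
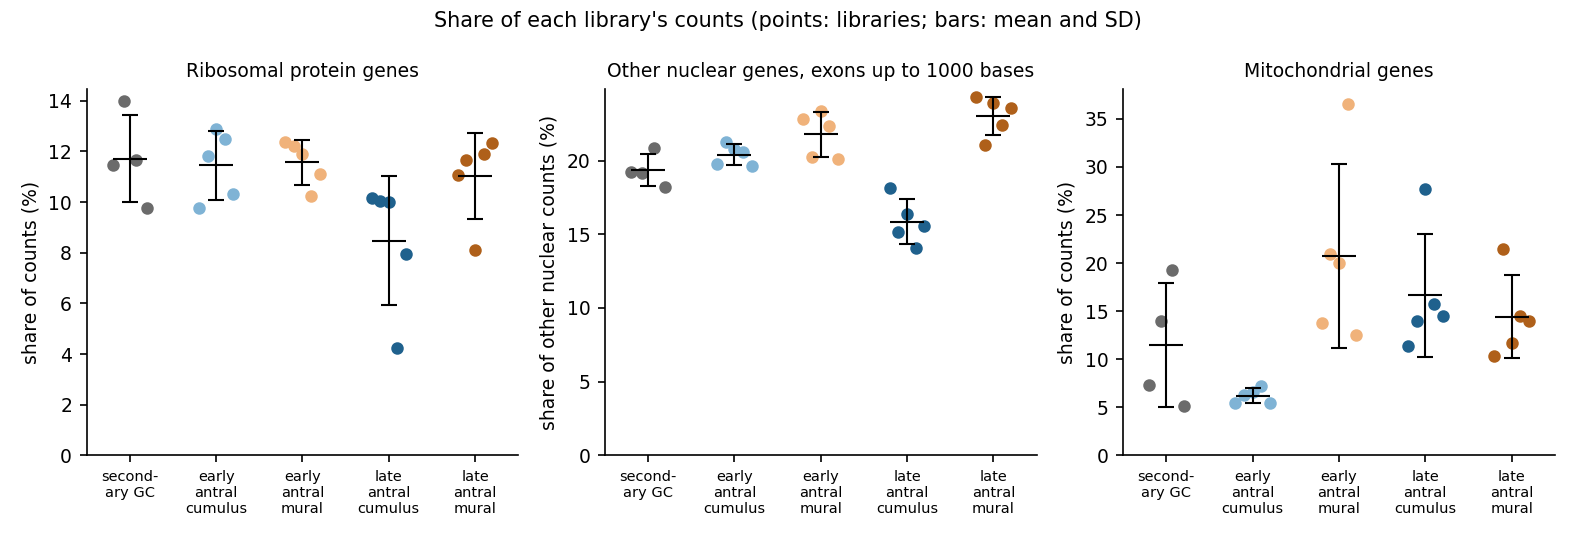
Share of each library's counts held by the 71 ribosomal protein genes, share of the other nuclear genes' counts held by genes with at most 1000 bases of exon, and share of mitochondrial genes (y axes, percent), by group (x axis); points are libraries, and bars give the mean and SD. Late cumulus library 4 is lowest in the left panel at 4.23%, and all 5 late cumulus libraries lie below the other groups in the middle panel.

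Per kilobase of exon, the highest mean levels over the 24 libraries were those of RPS25 (5188 CPM per kilobase), RPS28 (5097) and RPS15 (5064), all small-subunit proteins; RPS25 is known for its role in initiation on viral internal entry sites. The lowest were the paralogs RPL10L and RPL3L, a muscle form of RPL3, and then RPL22 (224 CPM per kilobase), an RNA-binding protein of the large subunit that has its own paralog in RPL22L1. RPL3L stayed between 0.107 and 2.05 CPM in all 24 libraries. RPS27L, the third paralog and a known p53 target, was in contrast expressed at 390.6 ± 59.8 CPM in secondary cells (SD, n = 4). The level of a paralog depends on how reads shared with its parent gene were counted.

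Late cumulus cells stood below early cumulus cells. Of 70 members, 23 were lower and 1 was higher at an adjusted p under 0.05 in edgeR's quasi-likelihood test. Over all 14298 genes 22.7% were lower and 22.5% higher. The share of members that were lower, unlike the share that were higher, exceeded this background over genes of every exon length. Among members of 500 to 2500 bases it did not exceed the share among other genes of like length, given below. The median log2 fold change of the members was -0.49, against 0.04 over all genes. The members called lower comprised 12 of 37 large-subunit proteins, 10 of 28 small-subunit proteins, no stalk protein and the paralog RPS27L. Early and late cumulus levels did not overlap for 18 members, all lower in late cells (25.7%, against 19.3% of all genes; 16.1% of all genes were higher without overlap).

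RPS27L (chromosome 10, 46889250 to 46892617, cow assembly ARS-UCD1.2, exon length 441 bases) fell furthest. Its level was 440, 521, 420, 445 and 439 CPM in early cumulus libraries 1 to 5 and 248, 213, 229, 137 and 169 CPM in late cumulus libraries 1 to 5. Every late library lay below every early one, and the log2 fold change was -1.16 ± 0.21 (SE, adjusted p = 1.0e-04).

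RPL28 (chromosome 18, 62099120 to 62101918, 678 bases of exon), a large-subunit protein, held 1279 to 1695 CPM in early cumulus libraries and 776, 907, 902, 347 and 726 CPM in late ones. The groups did not overlap, and the log2 fold change was -1.04 ± 0.23 (SE, adjusted p = 7.6e-04). After the correction for exon length described below, RPL28 was no longer called (-0.34 ± 0.19, adjusted p = 0.16). Its means were 1180 ± 213 CPM in early and 913 ± 128 CPM in late mural libraries (SD, n = 5 each), and late cumulus and late mural levels overlapped.

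RPS25 (chromosome 15, 29588693 to 29590407, 477 bases of exon) held 2260, 2881, 2960, 2656 and 2591 CPM in early cumulus libraries and 1773, 1633, 1670, 581 and 1059 CPM in late ones, again without overlap. Its log2 fold change was -0.96 ± 0.24 (SE, adjusted p = 0.0023), and -0.39 ± 0.18 (adjusted p = 0.086) after the length correction. RPL15 (chromosome 27, 42051425 to 42055369, 2195 bases of exon), a core large-subunit protein, held 1310 to 1734 CPM in early and 366 to 976 CPM in late cumulus libraries, with a log2 fold change of -0.96 ± 0.26 (SE, adjusted p = 0.0039). It was the longest of the 4 members with the lowest fold changes.

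**Figure D2:**
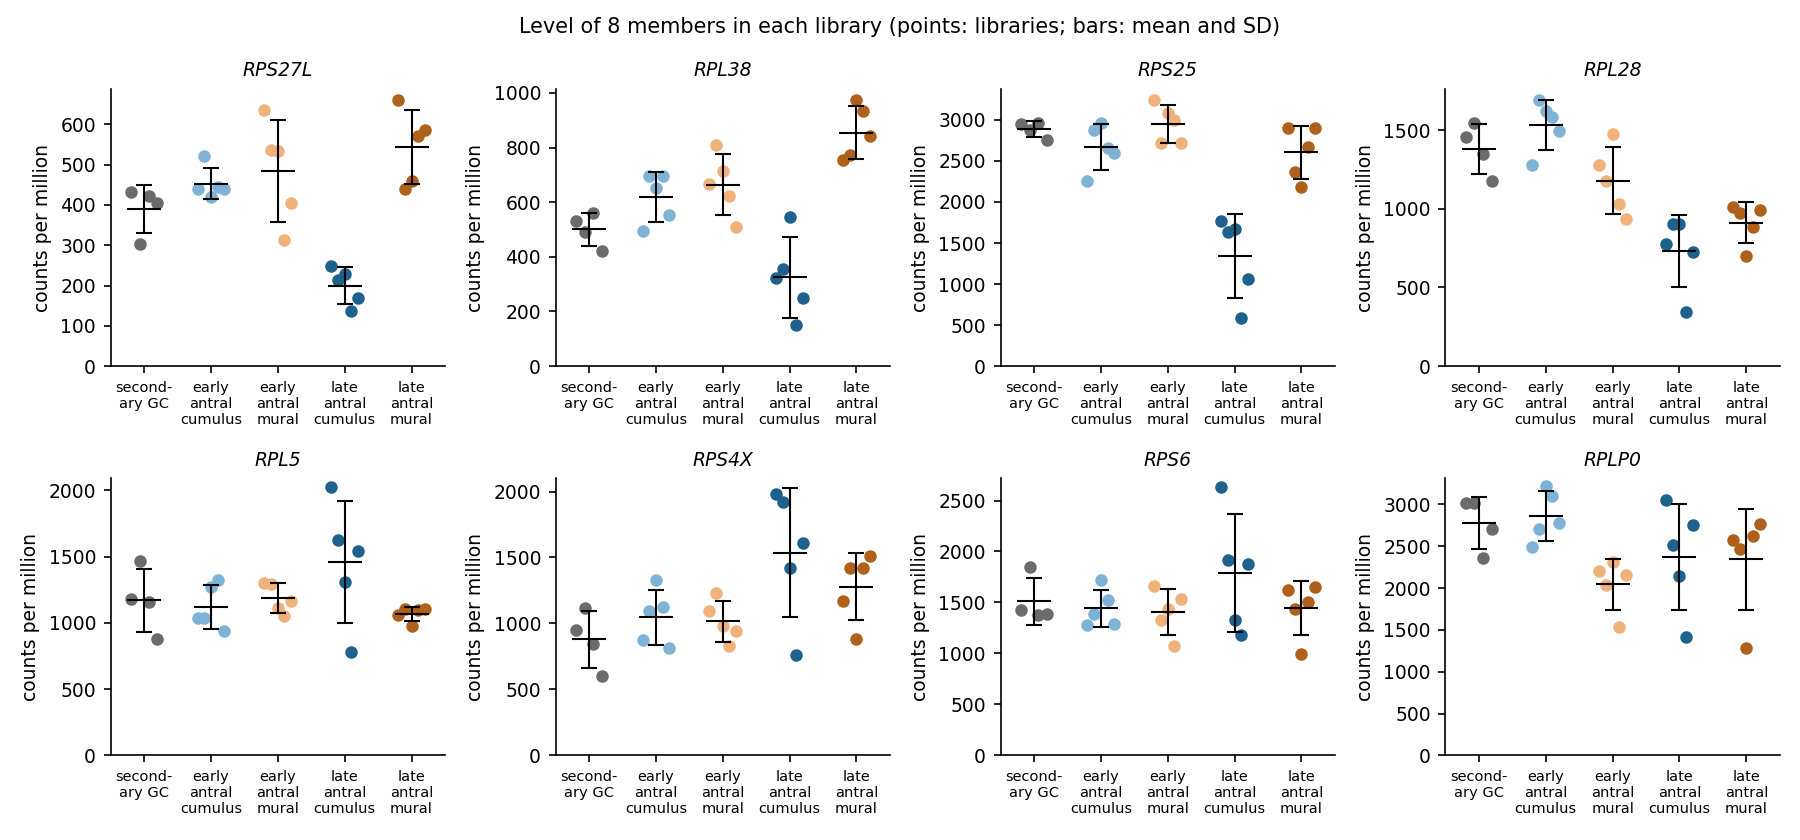
Level in CPM (y axes, from 0) of 8 members in each library, by group (x axes); points are libraries, and bars give the mean and SD. RPS27L, RPL38 and RPS25 are lowest in late cumulus libraries, RPL28 is low in both late groups, and 4 of 5 late cumulus libraries of RPS4X lie above the early cumulus libraries.

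Leaving out late cumulus library 4 left 17 members lower and 3 higher, with a median log2 fold change of -0.28, so library 4 contributed to the size of the difference. Without the 3 libraries that stood apart, 34 were lower (26% of all genes) and 1 higher, with a median of -0.58. Without late cumulus library 3 alone, 33 members were lower. The count fell to 15 without early cumulus library 4 and to 14 without late cumulus library 5. Shares of all genes called are not given for fits that left out 1 library, so these counts are not set against a background. In all, 14 of the 23 members stayed lower in each fit that left out 1 library and in each other fit without a length correction, among them RPS27L, RPL28, RPL15, RPS25, RPL38 and RPL3.

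The comparison of late cumulus with late mural cells asks how the 2 cell types of the same follicle stage differ, and shares the late cumulus libraries with the one above. Here 35 of 70 members were lower in cumulus cells and 0 were higher, against 20.8% lower and 18.9% higher of all genes. The median log2 fold change of the members was -0.58, against 0.02 over all genes. The lower members were 19 of 37 large-subunit proteins, 14 of 28 small-subunit proteins, the stalk protein RPLP2 and RPS27L. Levels did not overlap for 16 members, all lower in cumulus cells (22.9%, against 8.32% of all genes; 14.4% of all genes were higher without overlap).

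RPS27L again differed most, with 662, 439, 460, 571 and 585 CPM in late mural libraries 1 to 5, all above the highest late cumulus library (248 CPM). The log2 fold change was -1.65 ± 0.21 (SE, adjusted p = 1.7e-06). RPL38 (chromosome 19, 57192444 to 57196471, 320 bases of exon, the shortest member), a large-subunit protein known for skeletal patterning defects in its mouse mutants, held 321, 354, 547, 152 and 248 CPM in late cumulus libraries and 754, 772, 973, 935 and 841 CPM in late mural ones. The groups were apart, and the log2 fold change was -1.56 ± 0.25 (SE, adjusted p = 2.5e-05).

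RPS23 (chromosome 7, 82217490 to 82219272, 616 bases of exon), a protein of the decoding centre of the small subunit, held 572, 551, 548, 188 and 337 CPM in late cumulus libraries and 1062, 910, 1470, 1132 and 1087 CPM in late mural ones. All mural libraries were higher, late mural library 3 highest of all, and the log2 fold change was -1.53 ± 0.24 (SE, adjusted p = 2.1e-05). RPL27 (chromosome 19, 43026103 to 43028384, 464 bases of exon), a large-subunit protein, held 1103, 1130, 1224, 490 and 717 CPM in late cumulus libraries and 1868 to 2508 CPM in late mural ones. It did not overlap either, with a log2 fold change of -1.47 ± 0.23 (SE, adjusted p = 1.5e-05).

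Late mural library 3, which was low in FSHR and INHA, held 8.09% of its counts in the 71 genes, the least of its group. Without it, 42 members were lower in late cumulus cells and the median was -0.73, against 0.11 over all genes. Without all 3 libraries that stood apart, 49 were lower (21.4% of all genes) and 0 higher, with a median of -0.86. Without late cumulus library 4, 29 were lower and 1 was higher, with a median of -0.40, against 0.03 over all genes. For the 2 fits that left out 1 library, the shares of all genes called are not given.

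The stage by cell type interaction tests whether the late-minus-early difference in cumulus cells differs from that in mural cells. It was lower in cumulus cells for 9 of 70 members and higher for 0, against 16.9% lower and 14.5% higher of all genes, a share of members below the background. The median over the members was -0.44, against 0.04 over all genes. RPS27L had the lowest value, -1.44 ± 0.30 (SE, adjusted p = 7.3e-04), followed by RPL38 at -1.34 ± 0.35 (adjusted p = 0.0049), RPL27 at -1.30 ± 0.31 (adjusted p = 0.0028) and RPS23 at -1.24 ± 0.34 (adjusted p = 0.0065). The others were RPL15, RPS15A, RPL35, RPL8 and RPL3; RPL3 and RPL8 lie close to the centre of peptide bond formation. For RPL3, the call was lost in 9 of 20 fits that each left out 1 library. Without the 3 libraries that stood apart, 23 members were lower (18.4% of all genes).

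**Figure D3:**
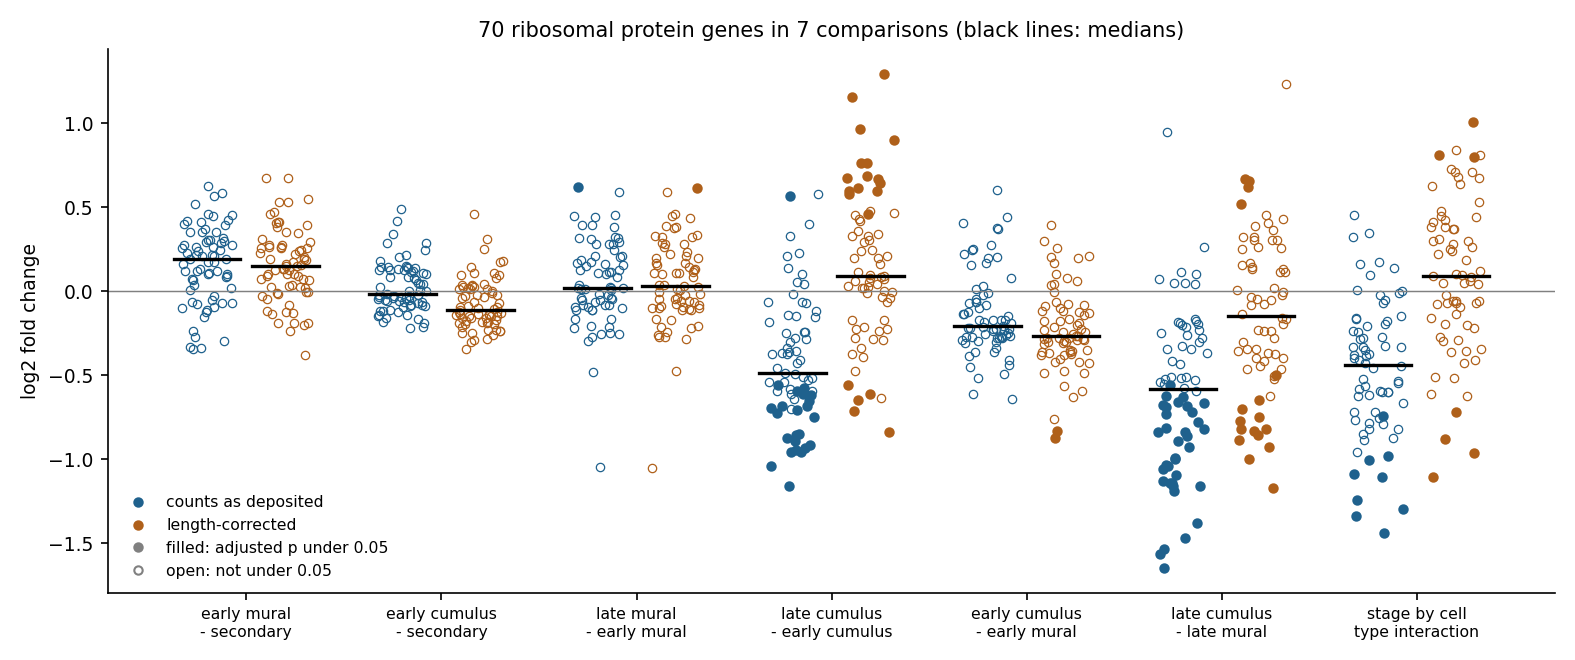
Log2 fold change (y axis) of 70 ribosomal protein genes in 7 comparisons (x axis), from the counts as deposited and after a correction for exon length; filled points had an adjusted p under 0.05, and black lines are medians. The late cumulus comparisons have medians of -0.49 and -0.58 before the correction, and 0.09 and -0.15 after it.

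The members were short genes. Their summed exon length ran from 320 to 3202 bases with a median of 845, and 43 of 71 had at most 1000 bases, against 14.7% of all genes tested, whose median was 2342 bases. Short genes other than the members also took a smaller share of counts in late cumulus libraries. Genes of at most 1000 bases took 15.9% ± 1.53 of the other nuclear counts there, against 20.4% ± 0.697 in early cumulus and 23% ± 1.30 in late mural libraries (SD, n = 5 each). The mean exon length weighted by counts was 2165 to 2490 bases in late cumulus libraries and 1791 to 2074 bases in all others, and late cumulus library 4, with the lowest share of ribosomal protein genes, had the highest.

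In late against early cumulus cells, the median log2 fold change of non-member genes was -0.75 for 500 to 750 bases, -0.85 for 750 to 1000 bases, -0.64 for 1000 to 1500 bases, -0.17 for 1500 to 2500 bases and 0.37 above 2500 bases. The members of those classes had medians of -0.51, -0.32, -0.46, -0.36 and -0.21. The members' median thus lay above that of other genes of their length from 500 to 1500 bases and below it in the longer classes, which held 10 and 2 members. Of the other genes, 43.5%, 48.7%, 44%, 25.8% and 10.7% were called lower in the same classes. Of the members, 6 of 18, 2 of 14, 5 of 16, 2 of 10 and 0 of 2 were called lower. Other genes of at least 100 CPM, which are nearer to the members in level, had medians of -1.16, -1.06, -1.04, -0.48 and 0.47 in the same classes. Among members of at most 500 bases the median was -0.88 and 8 of 10 were lower. Of other genes of that length 25.5% were lower, and their median was -0.07 and, at 100 CPM or more, -1.0. Across the 70 members, Spearman's rho between log2 fold change and exon length was 0.32 (0.28 over all genes), a description over genes that share the same libraries.

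**Figure D4:**
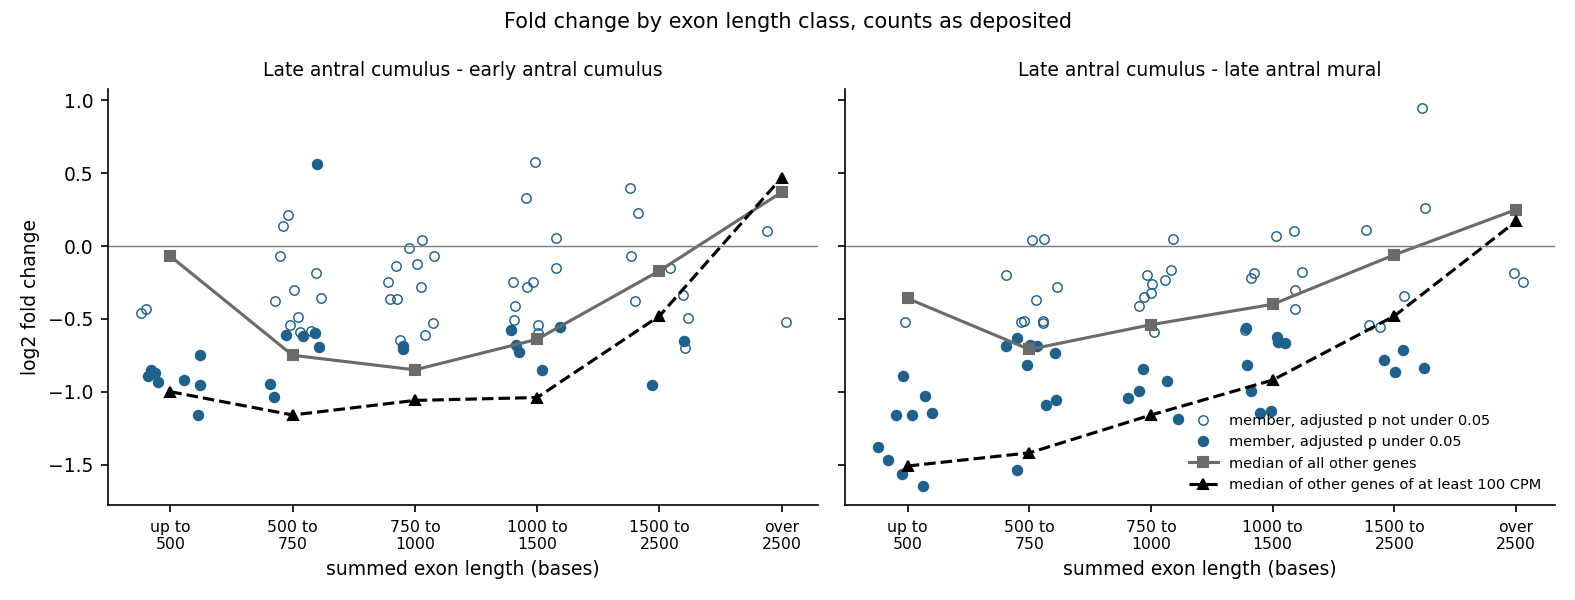
Log2 fold change (y axis, counts as deposited) of the 70 members (points, spread sideways for clarity) by class of summed exon length in bases (x axis), with the median of all other genes and of other genes of at least 100 CPM in each class. In the left panel the other genes' medians run from -0.85 at 750 to 1000 bases to 0.37 above 2500 bases, and most members of 500 to 1500 bases lie above the dashed line.

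Each library's trend of level on exon length was therefore removed and the test repeated. In late against early cumulus cells 15 of 70 members were then higher and 5 lower (20.2% and 19.1% of all genes), and the median moved from -0.49 to 0.09. Of the 23 members lower before, 4 remained lower (RPS27L, RPL15, RPL37 and RPL38) and 19 were no longer called, while RPSA joined them at -0.72 ± 0.24 (SE, adjusted p = 0.019). The estimated sign turned from negative to positive for 36 members. The direction of the members' median therefore depended on the correction, and the part of exon length in the difference was not tested. Without the 3 libraries that stood apart, the corrected counts were 11 higher and 10 lower, and the median was -0.10, against 0 over all genes. The share of all genes called in that fit is not given.

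Members higher after the correction included RPS4X at 1.16 ± 0.25 (SE, adjusted p = 7.2e-04), RPS6 at 0.97 ± 0.18 (adjusted p = 1.7e-04) and RPL9 at 0.90 ± 0.20 (adjusted p = 9.0e-04). RPL4, RPL5 and RPL17 of the large subunit were also higher, at 0.67, 0.61 and 0.76. RPS27L remained lower, at -0.61 ± 0.15 (SE, adjusted p = 0.0017), and was the 1 member called lower in every fit that was run for this comparison.

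In late cumulus against late mural cells, 13 members were lower and 4 higher after the correction (20.8% and 16.8% of all genes), with a median of -0.15. All 13 had been lower before. RPL38 was at -1.17 ± 0.20 (SE, adjusted p = 5.9e-05), RPS27L at -0.996 ± 0.15 (adjusted p = 9.6e-06), RPS23 at -0.93 ± 0.21 (adjusted p = 0.0014) and RPL35, a protein at the exit of the peptide tunnel, at -0.89 ± 0.24 (adjusted p = 0.0055). The higher members included RPL9, RPL13A and RPS6. Across every fit run for this comparison, 6 members stayed lower: RPS27L, RPL38, RPS23, RPL27, RPS15A and RPL35. Short non-member genes of at least 100 CPM also kept negative medians after the correction. These were -0.94 up to 500 bases, -0.76 for 500 to 750 bases and -0.59 for 750 to 1000 bases. The members' corrected medians in those classes were -0.58, 0.07 and 0.19. Without the 3 libraries that stood apart, the corrected counts were 24 members lower and 1 higher, with a median of -0.38 against 0.01 over all genes. The share of all genes called in that fit is not given, so these counts are not set against a background. In the corrected interaction 4 members were lower, RPS27L, RPL38, RPL27 and RPL15, and 3 were higher, RPL9, RPL13A and RPS6 (15.1% and 12.2% of all genes). The members' median moved from -0.44 to 0.09, and the estimated sign turned from negative to positive for 31 members.

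The remaining comparisons gave almost no calls. Early mural against secondary cells had 0 members called in edgeR's quasi-likelihood test (9.1% of all genes) with a median of 0.19, and 3 had an unadjusted p under 0.05. Early cumulus against secondary cells had 0 called (1.99% of all genes), a median of -0.02 and 0 with an unadjusted p under 0.05. Early cumulus against early mural cells had 0 called (13.1% of all genes), a median of -0.21 and 3 with an unadjusted p under 0.05. DESeq2 and limma-voom also called 0 in these 3 comparisons. The fit on the compared groups alone called 1 member higher in early mural than in secondary cells, and 1 higher and 7 lower in early cumulus than in early mural cells (the cause was not tested). The shares of all genes called in that fit are not given. After the length correction RPL37A and RPS29 were lower in early cumulus than in early mural cells, at -0.87 ± 0.29 and -0.83 ± 0.27 (SE, adjusted p = 0.043 each; 6.98% of all genes were lower).

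Late against early mural cells had 1 member called of 70, higher (19.1% of all genes in either direction, 9.76% higher), and a median of 0.02. The count was 0 to 2 when 1 mural library was left out.

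Members of known separate roles were followed by name. The stalk recruits the factors that drive each round of elongation. Its base protein RPLP0 held 2486 to 3217 CPM in early cumulus libraries and 3051, 2510, 2146, 1411 and 2751 CPM in late ones, with wide overlap and a log2 fold change of -0.25 ± 0.22 (SE, adjusted p = 0.39). RPLP1 held 1616 to 2217 CPM in early and 646 to 1878 CPM in late cumulus libraries (-0.38 ± 0.23, adjusted p = 0.19). After the length correction the estimates were 0.42 ± 0.19 for RPLP0 (adjusted p = 0.081) and 0.24 ± 0.20 for RPLP1 (adjusted p = 0.36). RPLP2 held 1341 to 1913 CPM in early cumulus, 476 to 1482 CPM in late cumulus and 1134 to 2242 CPM in late mural libraries. It was lower in late cumulus than in late mural cells, at -0.99 ± 0.26 (SE, adjusted p = 0.0041), and at -0.40 ± 0.25 (adjusted p = 0.23) after the length correction.

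RPSA, a small-subunit protein also known as a laminin receptor, had the longest gene model of the members (3202 bases of exon; chromosome 22, 12684159 to 12710177) and the weakest match of symbol to gene, with 0.516 of the union of both spans shared. Its group means were 6071 ± 703 CPM in secondary cells (SD, n = 4), 5454 ± 532 in early cumulus, 4336 ± 508 in early mural, 3751 ± 1091 in late cumulus and 3690 ± 945 CPM in late mural cells (SD, n = 5 each). Secondary cells had the highest mean and the 2 late groups the lowest. Early and late cumulus libraries overlapped, at 4841 to 6038 and 2113 to 4953 CPM, with a log2 fold change of -0.52 ± 0.23 (SE, adjusted p = 0.070).

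RPL5 forms a particle with RPL11 and a small ribosomal RNA that can bind MDM2 when free of the ribosome. It held 935 to 1324 CPM in early cumulus libraries and 2030, 1628, 1305, 783 and 1543 CPM in late ones. In all, 3 of the late libraries lay above all early ones and library 4 below, with a log2 fold change of 0.40 ± 0.21 (SE, adjusted p = 0.13). Without library 4 it was 0.58, with an adjusted p of 0.0092. RPS6, the substrate of the S6 kinases, held 1281 to 1724 CPM in early and 2636, 1918, 1332, 1179 and 1879 CPM in late cumulus libraries (0.33 ± 0.22, adjusted p = 0.22).

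RPS4X, a small-subunit protein of the X chromosome (78400215 to 78405064), held 872, 1096, 1330, 1122 and 813 CPM in early and 1980, 1917, 1422, 757 and 1613 CPM in late cumulus libraries. Of the late libraries, 4 were above all early ones and library 4 was below them, with a log2 fold change of 0.58 ± 0.24 (SE, adjusted p = 0.055). Without library 4 it was 0.77, with an adjusted p of 0.0042. RPL10, which joins the large subunit last in the cytoplasm, held 2849 to 4174 CPM in early and 1220 to 3415 CPM in late cumulus libraries (-0.28 ± 0.26, adjusted p = 0.40).

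RPS27A is made as a fusion with ubiquitin. It held 2834, 2996, 3093, 3485 and 2576 CPM in early cumulus, 2501, 2218, 2124, 751 and 1401 CPM in late cumulus and 2587 to 3535 CPM in late mural libraries. Late cumulus libraries were below every library of the other 2 groups, with log2 fold changes of -0.70 ± 0.25 against early cumulus (SE, adjusted p = 0.024) and -1.04 ± 0.25 against late mural cells (adjusted p = 0.0019), and -0.01 and -0.46 after the length correction. RPL3 held 1504 to 1904 CPM in early and 731 to 1322 CPM in late cumulus libraries, apart from each other, with a log2 fold change of -0.56 ± 0.19 (SE, adjusted p = 0.018) that was 0.00 after the correction. Its early mural level, 1144 ± 159 CPM (SD, n = 5), was already as low as its late cumulus level, 1117 ± 225 CPM (SD, n = 5).

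**Figure D5:**
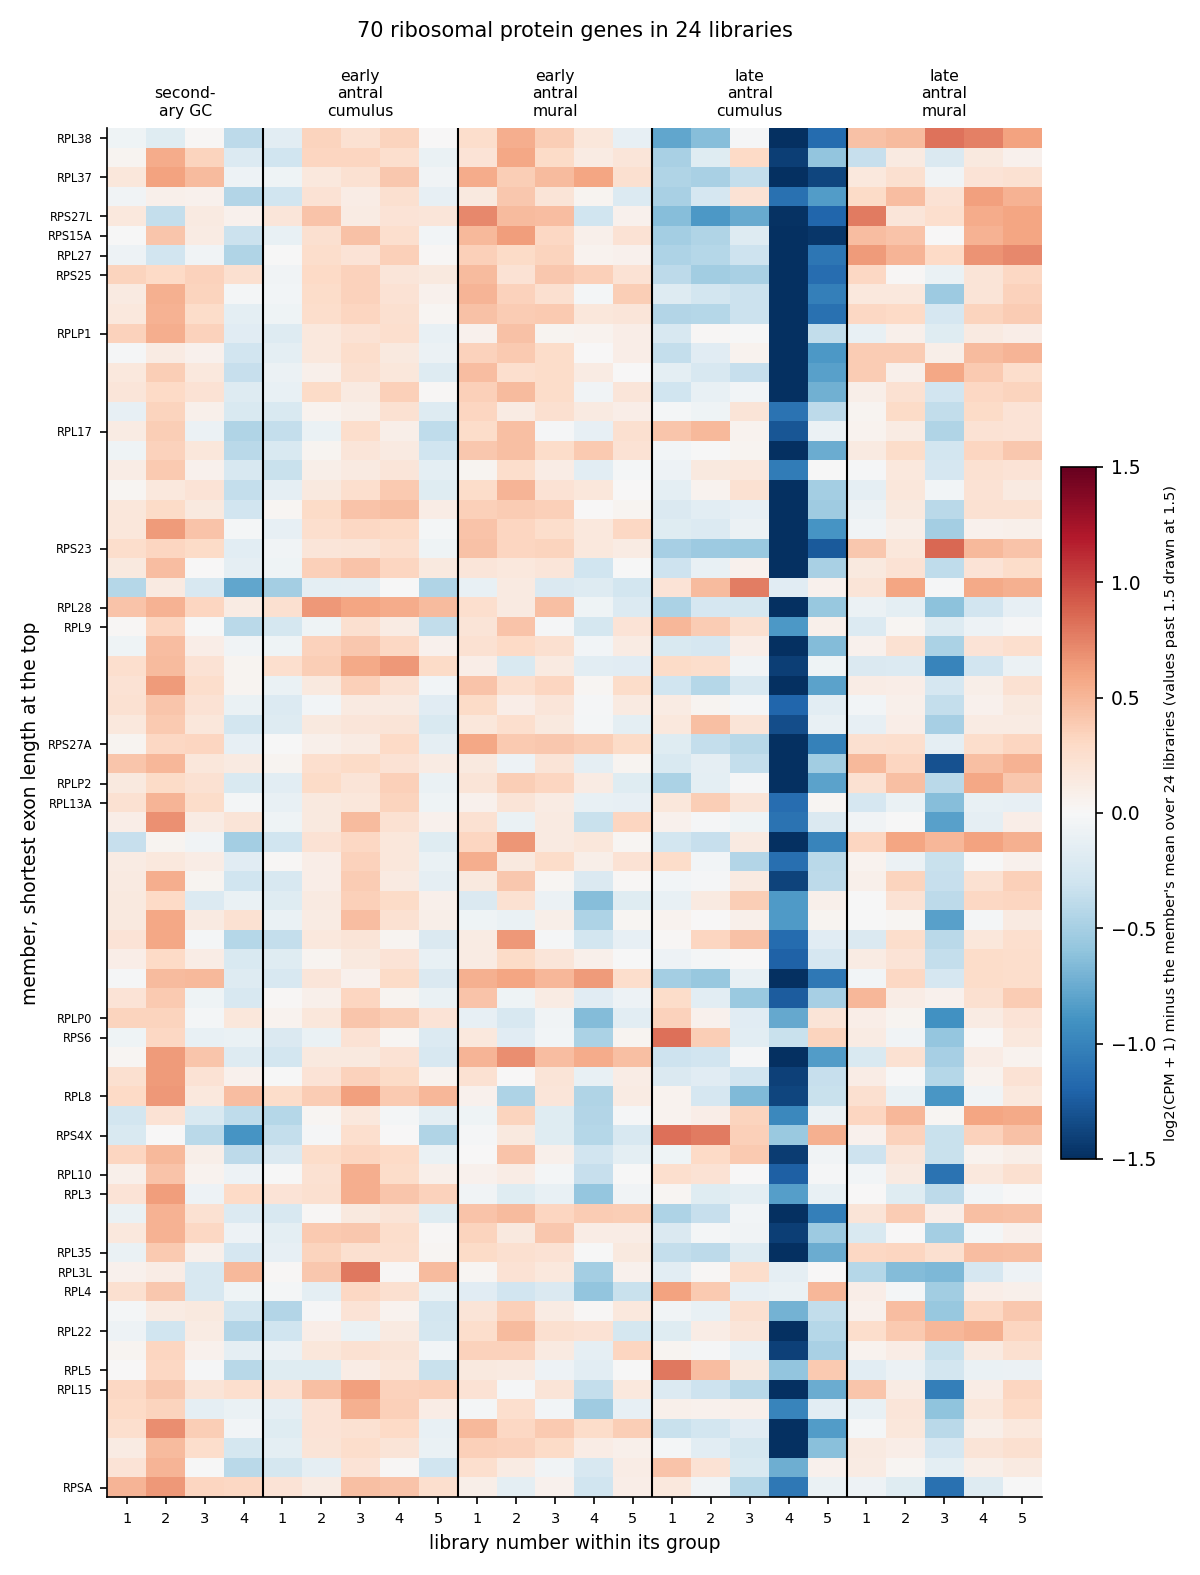
Level of 70 members (rows, shortest exon length at the top; some members are named) in 24 libraries (columns, numbered within their group), as log2(CPM + 1) minus the member's mean over all libraries; values past 1.5 in either direction are drawn at 1.5. Late cumulus library 4 is below the mean in nearly all members, and RPS6, RPS4X, RPL4 and RPL5 are above their mean in most of the other late cumulus libraries.

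The members varied together. The correlation of each member's log2 CPM with that of the summed other members over the 24 libraries had a median of 0.858 and a range of 0.103 to 0.973, and 44 of 70 were over 0.8. These values describe libraries that share depth and group, and late cumulus library 4 is low in most of them. Low values were those of RPL4 (0.103), RPL3L (0.208), RPS4X (0.240), RPS6 (0.297) and RPL5 (0.359). Of these, RPL4, RPS4X, RPS6 and RPL5 had positive log2 fold changes in late over early cumulus cells (0.23, 0.58, 0.33 and 0.40), none of them called.

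A further 6 symbols of the same form (RPL11, RPL30, RPL36A, RPS12, RPS24 and RPS27) met an unnamed gene of the table at 1 end only and were not counted as members. The other 2 unmatched symbols, RPL31 and RPL36, lie within genes of other names. RPS27, the parent gene of RPS27L and at 372 bases of exon as short, held 1630 ± 244 CPM in early cumulus, 855 ± 466 CPM in late cumulus and 1698 ± 299.9 CPM in late mural libraries (SD, n = 5 each). Its log2 fold change was -0.89 ± 0.30 in late against early cumulus cells (SE, adjusted p = 0.018). RPL11 held 694 ± 119 and 655 ± 172 CPM (SD, n = 5 each), a log2 fold change of -0.06 ± 0.21 (SE, adjusted p = 0.84). With these 6 added, 25 of 76 were lower and 1 higher (22.7% and 22.5% of all genes).

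Among ribosomal proteins outside the rule, 4 of 6 were lower in late than in early cumulus cells and 0 were higher (22.7% and 22.5% of all genes). They included RPL22L1, the paralog of RPL22, at -1.27 ± 0.21 (SE, adjusted p = 3.2e-05) and RPL7L1 at -0.87 ± 0.21 (adjusted p = 0.0015). After the length correction RPL22L1 and RPL7L1 remained lower, at -0.61 ± 0.16 and -0.88 ± 0.21 (SE). RACK1, a signalling scaffold on the small subunit with 2077 bases of exon, was at 0.26 ± 0.22 (SE, adjusted p = 0.34). RPL26L1, the paralog of RPL26, was at -0.31 ± 0.22 (SE, adjusted p = 0.25) and was higher after the correction, at 0.38 ± 0.15 (SE, adjusted p = 0.044). After the correction 2 of these 6 genes were lower and 1 was higher (19.1% and 20.2% of all genes).

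Genes that build ribosomes were examined beside the proteins of the finished particle. Of 79 assembly factors tested, 45 were higher in late than in early mural cells (9.76% of all genes) and 0 lower, with a median log2 fold change of 0.71, where 1 of 70 members was higher and their median was 0.02. DDX27, DDX21 and RRP1B, nucleolar factors of ribosomal RNA processing, led at 1.23, 1.13 and 1.15. Of 21 genes of the RNA polymerase I machinery, which transcribes ribosomal RNA, 7 were higher and 1 lower (9.76% of all genes higher, 19.1% called in either direction). The difference between these lists was not tested. Between late and early cumulus cells, 16 of 79 assembly factors were higher and 17 lower, near the shares of all genes (22.5% and 22.7%), and NHP2 and EMG1 were lowest, at -1.79 and -1.55. After the length correction 14 were higher and 7 lower (20.2% and 19.1% of all genes), and NHP2 was at -1.05. In late cumulus against late mural cells 2 of the 79 were higher and 34 lower (18.9% and 20.8% of all genes).

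Translation factors were mixed. Of 40 tested, 7 were higher and 11 lower in late than in early cumulus cells (22.5% and 22.7% of all genes). After the length correction 10 were higher and 7 lower (20.2% and 19.1% of all genes). In the counts as deposited, PABPC1, EIF4B and EEF2, whose own messenger RNAs are of the same pyrimidine-tract kind, were higher, at 1.19, 1.06 and 1.0. EIF6, EIF5A and EIF1AX were lower in those counts, at -1.44, -1.16 and -1.03. In late against early mural cells 13 were higher and 2 lower (9.76% of all genes higher, 19.1% called in either direction). In late cumulus against late mural cells 3 were higher and 17 lower (18.9% and 20.8% of all genes). Of 35 genes of mTOR and its control of such messenger RNAs, 11 were higher and 9 lower in late than in early cumulus cells (22.5% and 22.7% of all genes). After the length correction 10 were higher and 6 lower (20.2% and 19.1% of all genes). DDIT4, an inhibitor of mTOR complex 1, was highest at 2.59 ± 0.48 (SE, adjusted p = 1.7e-04), and RHEB, its activator, and MLST8, a subunit, were lowest at -1.86 and -1.69.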

How the data were processed

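RNA of 24 libraries was amplified with the SMART-Seq v4 kit and made into libraries with Nextera XT, per the labels' protocols. The deposited values are raw read counts per gene over its exons, made by the authors with featureCounts 2.0.0 on Ensembl models of ARS-UCD1.2 with no option set on strand, pairing or multiple mapping, per the file headers. Reads shared with processed copies or overlapping genes may therefore be missing or misplaced. The submitters' processing notes also list fastp 0.20.0, HISAT2 2.1.0 and SAMtools 1.10. The summed exon length of each gene is a deposited column. A further 1 column of counts, with no sample in the labels, was not used.

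The counts carry no symbols, so genes were named by mutual best overlap of gene spans with RefSeq of ARS-UCD2.0, of at least 0.5 of the union. A symbol was found in this way for 10805 of 12219 genes that averaged 1 CPM or more (88.4%), and for 1004 once all spans had been shifted by 1000000 bases. CPM are counts divided by the library's total and multiplied by 1000000. All groups entered 1 fit of edgeR 4.0.16 (R 4.3.3; TMM, filterByExpr, quasi-likelihood test, Benjamini-Hochberg over 14298 genes, threshold 0.05). The length correction took each library's smoothed trend on log2 exon length (span 0.3) into the offsets. Alternatives included limma 3.58.1 (voom) and DESeq2 1.42.0. The method was tested on simulated data, with changed genes picked at random from all genes tested. Of 2-fold changes, 23% to 32% were recovered in pairwise comparisons and 6% in the interaction. Of 4-fold changes, 65% to 74% and 53% were recovered. These shares are over genes of all levels, and recovery at the members' own levels was not measured. A member that was not called may still differ. Total counts of 8379801 to 31762400 set the depth, and no pair of libraries of a group agreed within sampling noise (lowest chi-square per degree of freedom 17.4).

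Members were named by role (stalk, RPSA, RPL5, RPL11, RPS6, RPL10, RPS27A, RPL3, RPS4X and paralogs), as up to 4 called members with the highest and up to 4 with the lowest fold change per comparison, as the 3 highest and 3 lowest per kilobase, and where the filter removed them. Of related lists, up to 3 called genes in each direction were named, and others were chosen after their values were seen. The members and lists were chosen with earlier results of these data known. Library numbers of secondary and late mural cells follow column order. Some single-gene results are not reported here.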

Additional observations from a re-analysis of the deposited data

Results flagged for a closer look

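In 155 groups of samples tested by member, 15 held a library far from the others of its group. These did not cover every member in every group. Chance flags about 1 in 20 groups, but the members varied together over libraries, so the groups were not independent tests. In late mural library 3, 7 members were lower than in the rest of the group: RPSA was at 2046 CPM (others 3862 to 4404), RPS27A at 2587 CPM (3366 to 3535), RPS15 at 2005 CPM (2926 to 3117), RPLP0 at 1283 CPM (2466 to 2764), RPL29 at 985 CPM (1414 to 1545), RPS20 at 937 CPM (1284 to 1410) and RPS7 at 760 CPM (1062 to 1182). In late cumulus library 4, RPL10 was at 1220 CPM (others 2823 to 3415), RPL18 at 730 CPM (1522 to 1719) and RPS7 at 420 CPM (820 to 982).

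Single members stood apart in 5 other cases. RPS23 was at 721 CPM in secondary library 4 (others 965 to 1008), and RPS6 at 1852 CPM in secondary library 2 (others 1374 to 1425). RPS27L was at 521 CPM in early cumulus library 2 (others 420 to 445). RPLP1 was at 2519 CPM in early mural library 2 (others 1908 to 1984), and RPL3 at 870 CPM in early mural library 4 (others 1142 to 1251).

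The late-minus-early difference was lower in cumulus than in mural cells, by the interaction test of edgeR, for 9 members. On the log2 scale it was -1.44 for RPS27L, -1.34 for RPL38, -1.30 for RPL27, -1.24 for RPS23, -1.11 for RPL15, -1.09 for RPS15A, -1.0 for RPL35, -0.98 for RPL8 and -0.74 for RPL3, with adjusted p between 7.3e-04 and 0.034. Of these, 5 were called in every fit that left out 1 library (RPS27L, RPL38, RPL27, RPS23 and RPL35). Among the 4 length-corrected fits, RPS27L was called lower in 4, RPL38 and RPL27 in 3 each, and RPS23 and RPL35 in 0.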

How the results depend on the processing

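In late against early cumulus cells (23 members lower, 1 higher), the length correction gave 5 lower and 15 higher, with a narrower span 4 and 16, with each member read at the members' median length 1 and 19, and without the 3 libraries that stood apart 10 and 11; the last 3 settings were chosen after seeing the data. The count of higher members was 2 with RLE scaling, total counts, a mean of at least 10 CPM and DESeq2, and 0 with no filter and with the compared groups only. Leaving out 1 library gave 14 to 33 lower and 0 to 3 higher. In late cumulus against late mural cells (35 lower, 0 higher), the same 3 corrections on all libraries gave 13, 11 and 7 lower and 4, 4 and 8 higher, and the correction without the 3 libraries 1 higher. The compared groups only gave 19 lower, and leaving out 1 library 27 to 43 lower and 0 to 1 higher. In the interaction (9 lower, 0 higher), the corrections gave 4, 3 and 1 lower and 3, 4 and 5 higher, and without the 3 libraries 4 and 2; without these libraries and without correction 23 were lower, and leaving out 1 library gave 5 to 17 lower and 0 to 1 higher.

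In late against early mural cells (1 higher), 0 were higher with RLE scaling, total counts, a mean of at least 10 CPM, limma-voom, the compared groups only and the correction at the median length, 2 without the 3 libraries and with the narrower span, 5 with the correction without the 3 libraries, and 0 to 2 when 1 library was left out. In early cumulus against early mural cells (0 called), 2 were lower under each of the 4 corrections, 7 lower and 1 higher with the compared groups only, and 1 higher with total counts. In early mural against secondary cells 1 was higher with the compared groups only. The cause of these changes was not tested, and shares of all genes are given above for only some of these fits.

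Among members named by the rule and called under either setting, the sign turned in late against early cumulus cells for RPL3 (0.00, 0.02 and 0.16 under the 3 corrections), RPL18 (0.08, 0.13 and 0.13), RPL29 (0.08, 0.12 and 0.13), RPS27A (0.04, narrower span) and RPLP0 (0.45, median length), and in late cumulus against late mural cells for RPS20 (0.02 and 0.07, first 2 corrections) and RPS7 (0.02, median length). Of 2601 values of single genes under alternatives, 2381 stayed on their side of the threshold (uncalled values that changed sign included), 149 lost and 57 gained a call with the same sign, and 14 reversed. The replicate block gave 25 lower and 1 higher in late against early cumulus cells (20 and 1 in the same 3 groups without it) and 0 in early cumulus against early mural cells. The counts could not settle whether same numbers mean paired libraries. Correlations of same-numbered libraries ran from -0.147 to 0.242, with 4 of 15 over 0.1. No paired analysis was possible for the other comparisons because the late mural columns carry no replicate number and those of the secondary columns differ from the numbers in the titles.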
